A study of Mus musculus with 33 samples.

Results

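The vesicle traffic genes are a set of liver transcripts that encode the coats, tethers, GTPases and fusion proteins of membrane transport. Members were chosen by gene symbol: Rab, Arf, Stx, Vamp, Vps, Snx or Tmed followed by a digit, Sec1 or Sec2 followed by a digit, and the coat genes Copa, Copb, Cope, Copg and Copz. A probe set also had to be called present by the authors' software on at least 3 of 33 arrays. Of 160 probe sets whose single symbol fitted, 112 probe sets for 92 genes passed, of 6568 probe sets tested and 12488 on the array. Of 120 genes that fitted by symbol, 28 had no detected probe set. The low-value filter looked at all 33 arrays together, and 42 of the 112 members were called present on all of them. The mean intensity over all arrays lay under 30 for 27 of the 112.

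Livers came from adult male mice, with 1 array (Affymetrix MG-U74Av2) per mouse and 11 groups. Rapamycin, which inhibits the nutrient-sensing kinase complex mTORC1, was injected at 10 mg/kg in 0.9% NaCl with 2% ethanol, and control mice received that vehicle alone. Mice fasted for 22 h were injected with rapamycin or vehicle and killed 2 h later (0 h), or fed again from that point for 3, 6 or 12 h (3 mice in each of 8 groups). Nonfasted mice received rapamycin or vehicle and were killed 24 h later (2 mice in each of 2 groups), and 5 mice were fasted for 24 h with no injection (fasted uninjected). The labels give no strain, and no group carries an engineered allele. No pooling of mice is stated, and whole liver was used. How many mice a group holds sets the precision of every value below.

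Secretory proteins leave the endoplasmic reticulum in vesicles coated by COPII and reach the Golgi apparatus. COPI vesicles, whose coat is recruited by Arf GTPases, bring escaped proteins and membrane back. Rab GTPases mark membranes and recruit tethers, SNARE proteins (syntaxins, Vamp proteins and Sec22b among them) fuse vesicles with their targets, and sorting nexins and Vps proteins sort cargo in endosomes. Hepatocytes are heavy users of this route because they secrete most plasma proteins and lipoproteins.

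Array-wide facts bear on every result. The arrays fell into 2 sets by the share of intensities at or below 0: 16 arrays with 35.05% to 40.8% (set 1) and 17 arrays with 24.2% to 28.2% (set 2). The comparisons whose groups lie wholly inside 1 set are vehicle refed for 6 h against vehicle at 0 h or against fasted uninjected mice, rapamycin refed for 12 h against rapamycin at 0 h, and nonfasted rapamycin against fasted uninjected mice. The same holds for rapamycin against vehicle at 12 h and for the vehicle injection against none. In all other comparisons set and group overlap wholly or in part, and counts with the set as a term stand beside them. Only rapamycin refed for 3 h (replicate 3 in set 1, the others in set 2) and for 6 h (the reverse) hold both sets. The set term is estimated from those groups alone, so every fit with it rests on few arrays. Hepatocyte markers matched the labelled tissue (7 of 8 listed genes detected). Their summed intensity was 22453 to 23940 in vehicle mice refed for 6 h, against 26149 to 29325 in vehicle mice at 0 h, and 19944 to 23214 in rapamycin mice refed for 12 h, against 26395 to 30992 in rapamycin mice at 0 h. Kupffer cell markers (8 of 10 genes detected) summed to 801 to 931 in vehicle mice at 6 h, against 692 to 769 at 0 h, and to 677 to 1012 in rapamycin mice at 12 h, against 709 to 887 at 0 h. Endothelial markers (3 of 6 detected) summed to 121 to 150 in vehicle mice at 6 h, against 57 to 95 at 0 h, and to 96 to 117 in rapamycin mice at 12 h, against 73 to 108 at 0 h. Stellate cell markers (3 of 6 detected) summed to 930 to 1062 in vehicle mice at 6 h, against 971 to 1202 at 0 h, and red cell markers (2 of 3) to 871 to 1345, against 1064 to 3000. Of 7 B and T cell markers 1 was detected, Ms4a1, at 299 to 379 in vehicle mice at 6 h, against 458 to 504 at 0 h. Fat markers (2 of 4) summed to 77 to 171 in vehicle mice at 6 h, against 123 to 250 at 0 h, and exocrine pancreas markers (2 of 8) to 69 to 129, against 63 to 95. In rapamycin mice at 12 h Ms4a1 read 263 to 322, against 461 to 555 at 0 h. Fat markers there summed to 121 to 128, against 196 to 240, and exocrine pancreas markers to 67 to 85, against 97 to 127. Stellate cell markers summed to 910 to 1114, against 1075 to 1245, and red cell markers to 1100 to 1272, against 818 to 1121. Bile duct and muscle lists had 0 detected. The part of cell makeup in the changes below was not tested. In whole tissue, fewer cells of a type and less RNA per cell cannot be told apart.

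After refeeding, 5 of the 7 COPI coat genes among the members were higher. So were the COPII subunits Sec23b and Sec24c and the retromer subunits Vps35 and Vps29, and Rab9 was lower. Refed mice were also killed more hours after injection than mice at 0 h, and no group stayed fasted for those hours. Food and time since injection therefore cannot be told apart in the comparisons with 0 h. The question asked by these comparisons is which traffic transcripts respond to food after a fast. In vehicle mice refed for 6 h against vehicle mice at 0 h, 22 of the 112 probe sets rose and 4 fell by limma at an adjusted p under 0.05. The share of all 6568 tested probe sets called higher was 14.2% and called lower was 6.9%. The median log2 change was 0.07 over members and 0.02 over all probe sets tested. In rapamycin mice refed for 12 h against rapamycin mice at 0 h, 24 rose and 6 fell, where 14.6% of all probe sets were called higher and 10.4% lower. Without replicate 2 of rapamycin 12 h 17 were called in all. Here the medians were 0.07 over members and -0.00373 over all. With each array scaled to 1 trimmed mean, 20 were higher and 10 lower at 6 h in vehicle mice, where 732 and 762 of all 6568 were. At 12 h in rapamycin mice 18 were then higher and 11 lower, where 814 and 874 of all were. Both comparisons called 15 of the same probe sets higher, for 13 genes: Arf1, Copa, Copb2, Cope, Copg1, Copz1, Rab8a, Sec14l2, Sec23b, Sec24c, Tmed3, Vps29 and Vps35. These 2 comparisons share no animals, but the overlap over all probe sets tested was not counted.

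**Figure D1:**
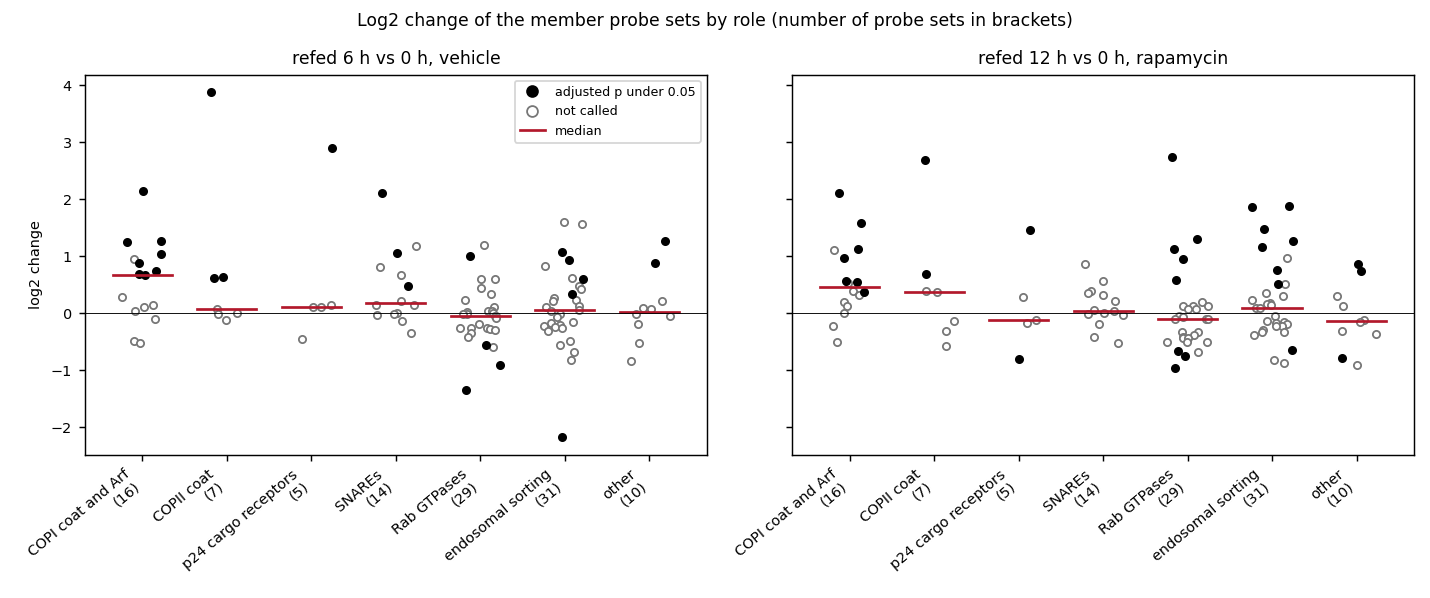
Log2 change (vertical axis) of each of the 112 probe sets by role, in vehicle mice refed for 6 h against 0 h (left) and rapamycin mice refed for 12 h against 0 h (right). Filled points had an adjusted p under 0.05 and red bars are medians. The COPI and Arf group has the highest median in both panels, 0.68 and 0.46.

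The COPI coat and its Arf GTPases rose in part. Of 16 probe sets (12 genes), 8 rose and 0 fell at 6 h in vehicle mice (median log2 change 0.68), and 7 rose and 0 fell at 12 h in rapamycin mice (median 0.46). Called higher were thus 50% and 43.75%, against 14.2% and 14.6% of all probe sets tested. Copz1 encodes the zeta subunit of the coat. It read 392, 384 and 282 in vehicle mice refed for 6 h, against 177, 99 and 179 in vehicle mice at 0 h, and 414, 419 and 359 in rapamycin mice refed for 12 h, against 129, 125 and 144 in rapamycin mice at 0 h. No refed array overlapped an unfed one. Of all probe sets tested, 19.9% lay wholly higher in the first comparison and 23.3% in the second. The log2 change was 1.25 ± 0.18 (SE, adjusted p = 1.7e-05) in vehicle mice and 1.58 ± 0.18 (adjusted p = 7.8e-07) in rapamycin mice, or 2.38-fold and 2.99-fold. Over the whole course Copz1 averaged 152, 235, 353 and 470.3 at 0, 3, 6 and 12 h in vehicle mice, and 133, 191, 338 and 397 in rapamycin mice.

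Cope encodes the epsilon subunit. It read 251, 244 and 212 in vehicle mice refed for 6 h, against 88, 100 and 105 in vehicle mice at 0 h (log2 change 1.27 ± 0.19, adjusted p = 2.4e-05). In rapamycin mice it read 253, 236 and 279 at 12 h, against 152, 90 and 117 at 0 h (1.13 ± 0.19, adjusted p = 0.00011). Fasted uninjected mice were lower still, between 35 and 48 with a median of 46. Cope was also called between vehicle mice at 0 h and fasted uninjected mice, with a log2 change of 1.18. Against fasted uninjected mice the log2 change was 2.45 in vehicle mice refed for 6 h and 2.37 in nonfasted rapamycin mice (203 and 243).

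Copa, the alpha subunit, and Copb2, the beta prime subunit, form the outer layer of the coat with Cope. Copa read 386, 420 and 484 in vehicle mice refed for 6 h, against 248, 235 and 320 in vehicle mice at 0 h, a log2 change of 0.69 ± 0.12 (adjusted p = 0.00014). In rapamycin mice it read 462, 463 and 416 at 12 h, against 329, 377 and 326 at 0 h (0.38 ± 0.12, adjusted p = 0.021). Copb2 has 2 probe sets. The first (93340_f_at) read 103, 139 and 108 at 6 h in vehicle mice, against 68, 59 and 61 at 0 h, and 118, 110 and 104 at 12 h in rapamycin mice, against 65, 50 and 56 at 0 h. Its log2 changes were 0.89 and 0.96, both called. The second (93341_r_at) was called in vehicle mice (0.75) but had an adjusted p of 0.14 in rapamycin mice (0.31), so the probe sets differ for that comparison.

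Copg1, the gamma 1 subunit, also has 2 probe sets. In 96936_at it read 133, 120 and 141 in vehicle mice refed for 6 h, against 62, 49 and 85 at 0 h (log2 change 1.04, adjusted p = 0.00018), and 158, 138 and 108 in rapamycin mice refed for 12 h, against 93, 88 and 89 at 0 h (0.56, adjusted p = 0.026). In 94427_at it read 53, 38 and 23 in vehicle mice at 6 h, against 1, 12 and 7 at 0 h, so its log2 change of 2.15 depends on the floor. Arf1 encodes the GTPase that recruits the coat. It read 1292, 1261 and 1203 in vehicle mice refed for 6 h, against 836, 639 and 910 in vehicle mice at 0 h (0.67 ± 0.11, adjusted p = 0.00012). In rapamycin mice it read 1216, 1209 and 1205 at 12 h, against 845, 816 and 814 at 0 h (0.55 ± 0.11, adjusted p = 0.00096). Within each pair of groups the refed arrays lay above all unfed ones.

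**Figure D2:**
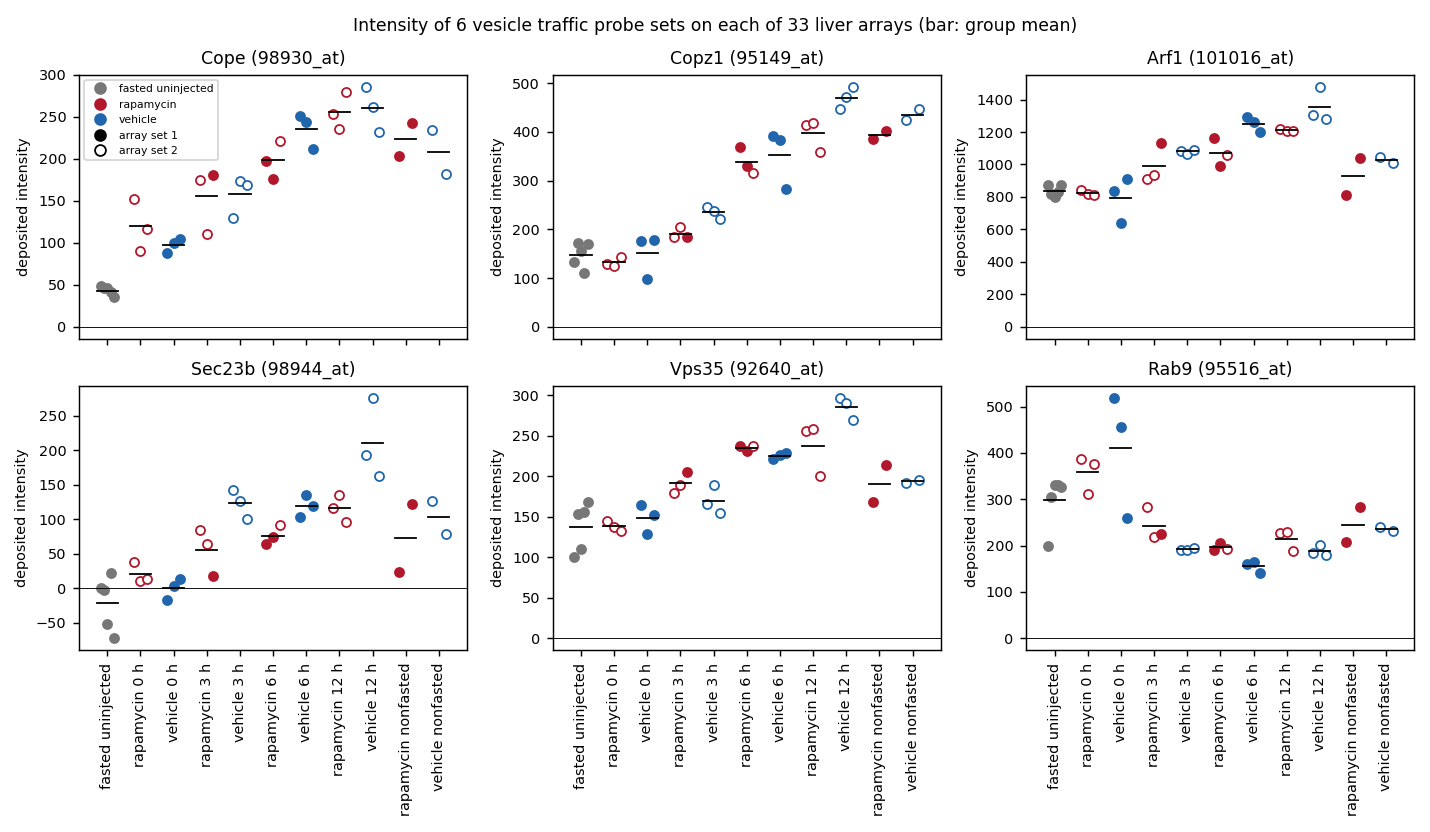
Deposited intensity (vertical axes) of 6 probe sets on each of the 33 arrays, by group, with the group mean as a bar; filled points are arrays of set 1 and open points arrays of set 2. Cope, Copz1, Arf1, Sec23b and Vps35 are higher and Rab9 is lower at 6 and 12 h after food than at 0 h, and Cope is lowest in fasted uninjected mice.

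Other members of this group were not called. Copb1, the beta subunit, read 134, 131 and 133 in vehicle mice refed for 6 h, against 142, 155 and 131 in vehicle mice at 0 h, and its log2 changes of -0.10 in that comparison and -0.21 at 12 h in rapamycin mice were not called. Copz2, the second zeta subunit, read 110, 89 and 135 at 6 h in vehicle mice, against 116, 88 and 94 at 0 h (0.15, not called). Arf5 (0.11 and 0.20), Arf4 (0.28 and 0.12) and both Arf6 probe sets were likewise not called in these comparisons. Arf4 was called only in vehicle mice refed for 6 h against fasted uninjected mice (0.50), among the 9 feeding comparisons. The difference in response between Copz1 and Copz2, or between Copb2 and Copb1, was not itself tested.

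**Figure D3:**
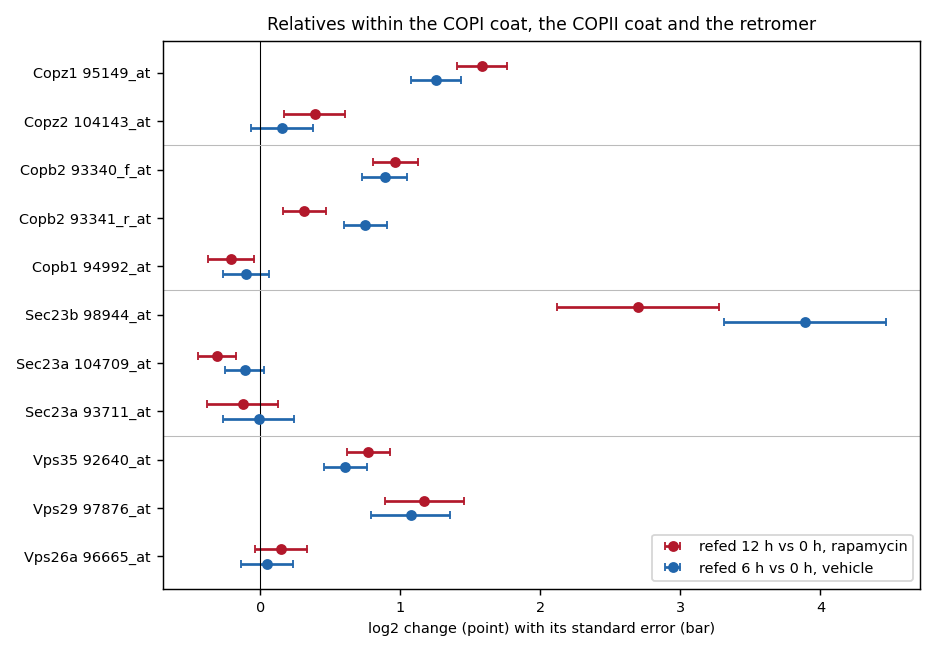
Log2 change (point) with its standard error (bar) for relatives within the COPI coat, the COPII coat and the retromer; red is rapamycin refed for 12 h against 0 h and blue is vehicle refed for 6 h against 0 h. Copz1, Copb2 93340_f_at, Sec23b, Vps35 and Vps29 lie above 0 with their bars in both comparisons, and Copz2, Copb1, Sec23a and Vps26a lie nearer to 0.

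Promoters are shown because several coat genes moved together, and as description only. RefSeq windows (GRCm38.p6, from 250 bases before to 50 after the start) were found for 77 of the 92 member genes and not for 15, Vps35 among them. The letters TGACGTGG, read on both strands, stood in promoters of 5 of 77 member genes (6.49%), against 193 of 27025 genes of the table (0.714%). The 5 genes were Arf1, Copb1, Copb2, Sec23a and Stx5a; of these Arf1 and Copb2 rose in both comparisons above, and Copb1 did not. The lysosomal E-box TCACGTGA, which reads the same on both strands, stood in 6 of 77 (7.79%), against 304 of 27025 (1.12%). Its 6 genes were Rab21, Rab24, Rab5a, Stx6, Vps16 and Vps26a. The ER stress element (CCAAT, 9 free bases, CCACG) was found in promoters of 0 of 77 member genes, against 37 of 27025 (0.137%). Base composition was not compared, and nothing about a factor follows from the matches. The windows below run 5′ to 3′ on the gene's strand from position -120 to the first transcribed base, with the match in capitals. The Vps26a window runs from -200 to -120, and its match begins at -183. The Copb2 match begins at -7, the Copb1 match at -28, the Arf1 match at -84 and the Rab5a match at -96.
Copb2, chr9:98563611-98563731, plus strand: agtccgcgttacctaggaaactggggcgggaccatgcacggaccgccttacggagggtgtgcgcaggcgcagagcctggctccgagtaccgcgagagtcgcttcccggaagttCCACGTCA
Copb1, chr7:114254680-114254800, minus strand: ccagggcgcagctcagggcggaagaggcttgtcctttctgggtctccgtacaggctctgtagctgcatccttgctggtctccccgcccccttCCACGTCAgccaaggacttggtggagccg
Arf1, chr11:59228162-59228282, minus strand: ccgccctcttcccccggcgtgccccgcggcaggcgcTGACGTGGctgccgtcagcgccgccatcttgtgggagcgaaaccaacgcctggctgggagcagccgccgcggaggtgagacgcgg
Vps26a, chr10:62486925-62487005, minus strand: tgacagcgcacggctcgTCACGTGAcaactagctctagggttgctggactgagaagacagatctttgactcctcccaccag
Rab5a, chr17:53479114-53479234, plus strand: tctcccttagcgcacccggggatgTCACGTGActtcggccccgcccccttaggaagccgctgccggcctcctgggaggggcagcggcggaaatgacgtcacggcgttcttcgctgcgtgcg

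Within the COPII coat 1 of a pair of paralogues rose. Of 7 probe sets (6 genes), 3 rose and 0 fell at 6 h in vehicle mice (median log2 change 0.07), and 2 rose and 0 fell at 12 h in rapamycin mice (median 0.37). Called higher were thus 42.9% and 28.6%, against 14.2% and 14.6% of all probe sets tested. Sec23b encodes an inner coat subunit that stimulates the coat GTPase. It read 104, 135 and 120 in vehicle mice refed for 6 h, against -16, 4 and 13 in vehicle mice at 0 h, where all arrays lay under 30. Its log2 change of 3.89 depends on the floor, and with the lower group set to 30 Sec23b was at least 3.97-fold higher (adjusted p = 2.7e-05). In rapamycin mice it read 116, 136 and 96 at 12 h, against 39, 11 and 13 at 0 h (log2 change 2.70, adjusted p = 0.0014).

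Sec23a, the paralogue of Sec23b, was not called in either comparison. Its probe set 104709_at read 225, 247 and 257 in vehicle mice refed for 6 h, against 269, 225 and 298 in vehicle mice at 0 h (log2 change -0.11). Sec23a was instead lower against fasted uninjected mice: by -0.36 in vehicle mice refed for 6 h and by -0.75 in nonfasted rapamycin mice (184 and 186, against 288 to 349 with a median of 297). Sec24c, a cargo-binding subunit, read 257, 273 and 278 in vehicle mice refed for 6 h, against 173, 135 and 221 at 0 h (0.64, called), and 241, 213 and 197 in rapamycin mice refed for 12 h, against 146, 138 and 118 at 0 h (0.70, called). Sec13, which joins the outer layer, rose at 6 h in vehicle mice (190, 189 and 224, against 130, 112 and 154 at 0 h, 0.61). In rapamycin mice at 12 h its log2 change of 0.37 was not called.

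Of the p24 proteins, cargo receptors that cycle between the endoplasmic reticulum and the Golgi, Tmed3 rose and most others were not called. Tmed3 read 68, 107 and 79 in vehicle mice refed for 6 h, against -2, 4 and 35 in vehicle mice at 0 h, and 68, 55 and 50 in rapamycin mice refed for 12 h, against 26, 12 and 29 at 0 h. The groups did not overlap, and the log2 changes were 2.90 (adjusted p = 0.00029) and 1.46 (adjusted p = 0.047). The rapamycin value missed the threshold with each array scaled to 1 trimmed mean (adjusted p = 0.059). Tmed9 fell at 12 h in rapamycin mice (60, 65 and 51, against 117, 107 and 83 at 0 h, log2 change -0.80) and its change of -0.44 at 6 h in vehicle mice was not called. Tmed4 and the Tmed7 probe set 94903_at lay between -0.17 and 0.12 in both comparisons. Tmed7 160183_f_at was called against fasted uninjected mice (0.49 in vehicle mice at 6 h and 0.51 in nonfasted rapamycin mice).

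Of 31 endosomal sorting probe sets (28 genes), 4 rose and 1 fell at 6 h in vehicle mice (median log2 change 0.07). These are 12.9% and 3.2%, against 14.2% and 6.9% of all probe sets tested. At 12 h in rapamycin mice 7 rose and 1 fell (median 0.09), or 22.6% and 3.2%, against 14.6% and 10.4% of all. Vps35 and Vps29 are core subunits of the retromer, which returns cargo from endosomes to the Golgi. Vps35 read 221, 226 and 229 in vehicle mice refed for 6 h, against 165, 129 and 152 in vehicle mice at 0 h (0.61 ± 0.16, adjusted p = 0.0062), and 256, 258 and 200 in rapamycin mice refed for 12 h, against 145, 138 and 133 at 0 h (0.77 ± 0.16, adjusted p = 0.00081). Vps29 read 97, 109 and 50 at 6 h in vehicle mice, against 40, 49 and 29 at 0 h (1.07, adjusted p = 0.0077), with 1 refed array just above the highest unfed one. In rapamycin mice it read 97, 113 and 111 at 12 h, against 55, 44 and 44 at 0 h (1.17, adjusted p = 0.0037). Vps26a, a further retromer subunit, read 58, 58 and 69 at 6 h in vehicle mice, against 65, 49 and 66 at 0 h, and its log2 changes of 0.05 and 0.15 were not called.

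Sorting nexins and tethering subunits added smaller or less regular changes. Snx5, a retromer-linked nexin, rose by its probe set 104225_at at 6 h in vehicle mice (46, 16 and 50, against 16, 17 and 19 at 0 h, 0.94). There 1 refed array was no higher than any unfed one, and all unfed arrays lay under 30. Snx5 104225_at was not called at 12 h in rapamycin mice (0.09). Snx3 rose at 6 h in vehicle mice (0.34). Vps53, a tethering subunit of the GARP complex, rose at 12 h in rapamycin mice (1.27), where Vps52 of the same complex fell: 92, 92 and 88, against 130, 160 and 136 at 0 h (-0.64). Vps52 also fell against fasted uninjected mice, by -0.66 in vehicle mice refed for 6 h and by -0.92 in nonfasted rapamycin mice (76 and 79, against 129 to 171 with a median of 139). Vps54, another GARP subunit, was not called (0.21 and 0.18). Snx10 fell by 2.18 on the log2 scale at 6 h in vehicle mice (13, 9 and 32, against 104, 83 and 40 at 0 h) and its -0.86 at 12 h in rapamycin mice was not called. Vps72, which fits by symbol but encodes a chromatin protein, rose at 12 h in rapamycin mice (1.87).

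Rab GTPases were called in both directions. Of 29 probe sets (23 genes), 1 rose and 3 fell at 6 h in vehicle mice (median log2 change -0.04). These are 3.4% and 10.3%, against 14.2% and 6.9% of all probe sets tested. At 12 h in rapamycin mice 5 rose and 3 fell (median -0.10), or 17.2% and 10.3%, near the 14.6% and 10.4% of all. Rab8a, which acts in transport to the cell surface, read 227, 210 and 267 in vehicle mice refed for 6 h, against 124, 107 and 117 in vehicle mice at 0 h, and 223, 254 and 239 in rapamycin mice refed for 12 h, against 122, 86 and 123 at 0 h. Groups did not overlap and both log2 changes were called (1.01 and 1.13). Rab9, which acts in return from late endosomes to the Golgi, went the other way. It read 160, 165 and 141 in vehicle mice refed for 6 h, against 519, 457 and 259 in vehicle mice at 0 h (-1.35 ± 0.20, adjusted p = 2.7e-05), and 228, 229 and 188 in rapamycin mice refed for 12 h, against 388, 312 and 377 at 0 h (-0.74 ± 0.20, adjusted p = 0.0088). Every refed array lay below every unfed one in both, as for 10.7% and 22.7% of all probe sets tested.

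Rab24, linked to autophagy, rose at 12 h in rapamycin mice (111, 111 and 111, against 60, 51 and 61 at 0 h, log2 change 0.96), and its 0.44 at 6 h in vehicle mice was not called. Rab25 fell at 12 h in rapamycin mice (-0.65), and Rab12 at 6 h in vehicle mice (42, 43 and 76, against 81, 71 and 75 at 0 h, -0.55), where 1 refed array lay among the unfed ones. Rab7, which acts on late endosomes, has probe sets that differ: 95785_s_at rose at 12 h in rapamycin mice (0.58) while 99587_at read 403, 418 and 378, against 407, 293 and 413 at 0 h (0.12, not called). Rab14 has 3 probe sets, of which 95686_at fell in both comparisons (-0.90 and -0.96) and 97301_at was not called (0.01 and 0.12). Rab1a, Rab2a and Rab18, which serve the early secretory route and lipid droplets, were not called in either (-0.27 to 0.11). Suffixes _f_at, _s_at and _r_at mark probe sets that can share sequence with other transcripts, so values of Copb2, Rab7, Tmed7 and Sec14l2 are less certain.

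Of 14 SNARE probe sets (12 genes), 3 rose and 0 fell at 6 h in vehicle mice (median log2 change 0.19), and 0 rose and 0 fell at 12 h in rapamycin mice (median 0.05). Called higher were thus 21.4% and 0%, against 14.2% and 14.6% of all probe sets tested. Sec22b, a SNARE of transport between the endoplasmic reticulum and the Golgi, rose in its probe set 93440_at at 6 h in vehicle mice (115 ± 14.4 at 6 h, against 83 ± 15.6 at 0 h, SD, n = 3 each, log2 change 0.47). Stx4a, a syntaxin of the cell surface, read 44, 96 and 41 at 6 h in vehicle mice, against 13, -21 and 26 at 0 h (2.11). With a floor of 30 it was no longer called in that comparison. Vamp7, a lysosomal SNARE, read 12, 17 and 16 at 6 h in vehicle mice, against 1, 9 and 2 at 0 h. Both groups were under 30 on every array, so its call there (1.06) cannot be read as a size. Stx5a, Stx7, Vamp8 100345_f_at and Vamp2 were not called in these 2 comparisons.

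Among the remaining 10 probe sets (7 genes), both for Sec14l2, a lipid transfer protein rather than a coat protein, rose. Sec14l2 96759_r_at read 134, 133 and 115 at 6 h in vehicle mice, against 69, 25 and 85 at 0 h (1.27), and 132, 140 and 132 at 12 h in rapamycin mice, against 79, 90 and 56 at 0 h (0.87). Sec11c, a signal peptidase subunit, fell at 12 h in rapamycin mice (162, 109 and 173, against 239, 305 and 212 at 0 h, -0.78) and its -0.19 at 6 h in vehicle mice was not called. The rest of this group was not called in either comparison.

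Of the other comparisons from 0 h, refeeding for 3 h in vehicle mice called 20 higher and 1 lower. Across all probe sets 19.9% were called higher and 2.54% lower, and the medians were 0.29 over members and 0.27 over all, a share of members near that of the array as a whole. With the array set as a term 1 was higher and 1 lower, where 118 and 58 of all 6568 were. With each array scaled to 1 trimmed mean 10 were higher and 5 lower, where 736 and 583 of all were. At 12 h in vehicle mice 32 were higher and 3 lower, where 26% of all were called higher and 9.3% lower. The medians were 0.35 over members and 0.24 over all. With the set as a term 18 were higher and 4 lower, where 632 and 391 of all 6568 were. With 1 trimmed mean 24 were higher and 15 lower, where 1111 and 1253 of all were. With quantile normalization 26 were higher and 10 lower, where 1254 and 968 of all were. Copz1 (447, 471 and 493, against 177, 99 and 179 at 0 h, log2 change 1.68) and Cope (1.41), Arf1 (0.78), Copa (0.89), Tmed3 (3.69) and Vps35 (0.95) stayed called with the term.

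In rapamycin mice 2 probe sets were higher and 0 lower at 3 h, where 1.58% of all were called higher and 1.2% lower. The set as a term also gave 2 and 0, where 85 and 42 of all 6568 were called. The 2 members were Sec24c (225, 214 and 247, against 146, 138 and 118 at 0 h, log2 change 0.77) and the dim Stx6 (0.95). At 6 h 13 were higher and 5 lower, against 10.7% and 10.1% of all. The set as a term gave 11 and 1, where 444 and 175 of all 6568 were called. Copz1 (368, 331 and 316, against 129, 125 and 144 at 0 h, 1.35), Copb2 93340_f_at (0.95), Vps35 (238, 231 and 238, against 145, 138 and 133 at 0 h, 0.77), Sec24c (0.87) and Rab8a (1.01) were among those higher under either fit. Rab9 fell (191, 206 and 192, against 388, 312 and 377 at 0 h, -0.86).

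The comparisons with uninjected fasted mice use a separate set of controls. Food cannot be told apart from the injection in them, nor from the drug in nonfasted rapamycin mice. Vehicle mice refed for 6 h had 31 higher and 7 lower against fasted uninjected mice, where 18% of all were called higher and 11.6% lower. With 1 trimmed mean the split was 29 and 15, where 971 and 1039 of all 6568 were called. Nonfasted rapamycin mice had 21 higher and 8 lower against fasted uninjected mice, where 12.8% and 10.9% of all were called. Hepatocyte markers summed to 22493 to 23192 in nonfasted rapamycin mice, against 26538 to 30174.5 in fasted uninjected mice, and Ms4a1 read 329 to 475, against 569 to 742. In vehicle mice refed for 6 h these were 22453 to 23940 and 299 to 379. Stellate cell markers summed to 930 to 1062 in vehicle mice at 6 h and 888 to 1042 in nonfasted rapamycin mice, against 1153 to 1336. Both comparisons use the same fasted uninjected arrays. Copz1 read 392, 384 and 282 in vehicle mice refed for 6 h and 385 and 401 in nonfasted rapamycin mice, against 110 to 172 with a median of 155 in fasted uninjected mice. Vps29 read 83 and 90 in nonfasted rapamycin mice, against 14 to 36 with a median of 26 (1.79, adjusted p = 6.7e-05). Of the 29 probe sets called in nonfasted rapamycin mice, 7 had every array of both groups under 30. Without replicate 2 of the nonfasted rapamycin mice 8 were called in all, and without replicate 3 of the fasted uninjected mice 19.

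Nonfasted vehicle mice against vehicle mice at 0 h had 21 higher and 3 lower, where 19.1% of all were called higher and 10.1% lower. Marker sums also differed: 1061 to 1441 for Kupffer cells in nonfasted vehicle mice, against 692 to 769 in vehicle mice at 0 h, 164 to 174 for endothelial cells, against 57 to 95, and 163 to 180 for exocrine pancreas, against 63 to 95. Ms4a1 read 123 to 207, against 458 to 504, and hepatocyte markers summed to 24417 to 24431, against 26149 to 29325. Their part in the result was not tested. With the set as a term 8 were higher and 1 lower, where 536 and 498 of all 6568 were. With 1 trimmed mean 14 were higher and 14 lower, where 993 and 1172 of all were. Copz1 (424 and 447, against 177, 99 and 179, log2 change 1.57) and Cope (234 and 182, against 88, 100 and 105, 1.08) were called under either fit. Without replicate 1 or replicate 2 of the nonfasted vehicle mice 14 were called. The vehicle injection itself, set against no injection in fasted mice, called 2 higher and 0 lower, where 2.94% of all were called higher and 2.94% lower. They were Cope and Vamp8 93305_f_at (187, 231 and 100, against 49 to 95 with a median of 82, 1.15). Without replicate 3 of vehicle 0 h 18 were called. With each array scaled to 1 trimmed mean 5 were higher and 1 lower, where 279 and 187 of all 6568 were.

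**Figure D4:**
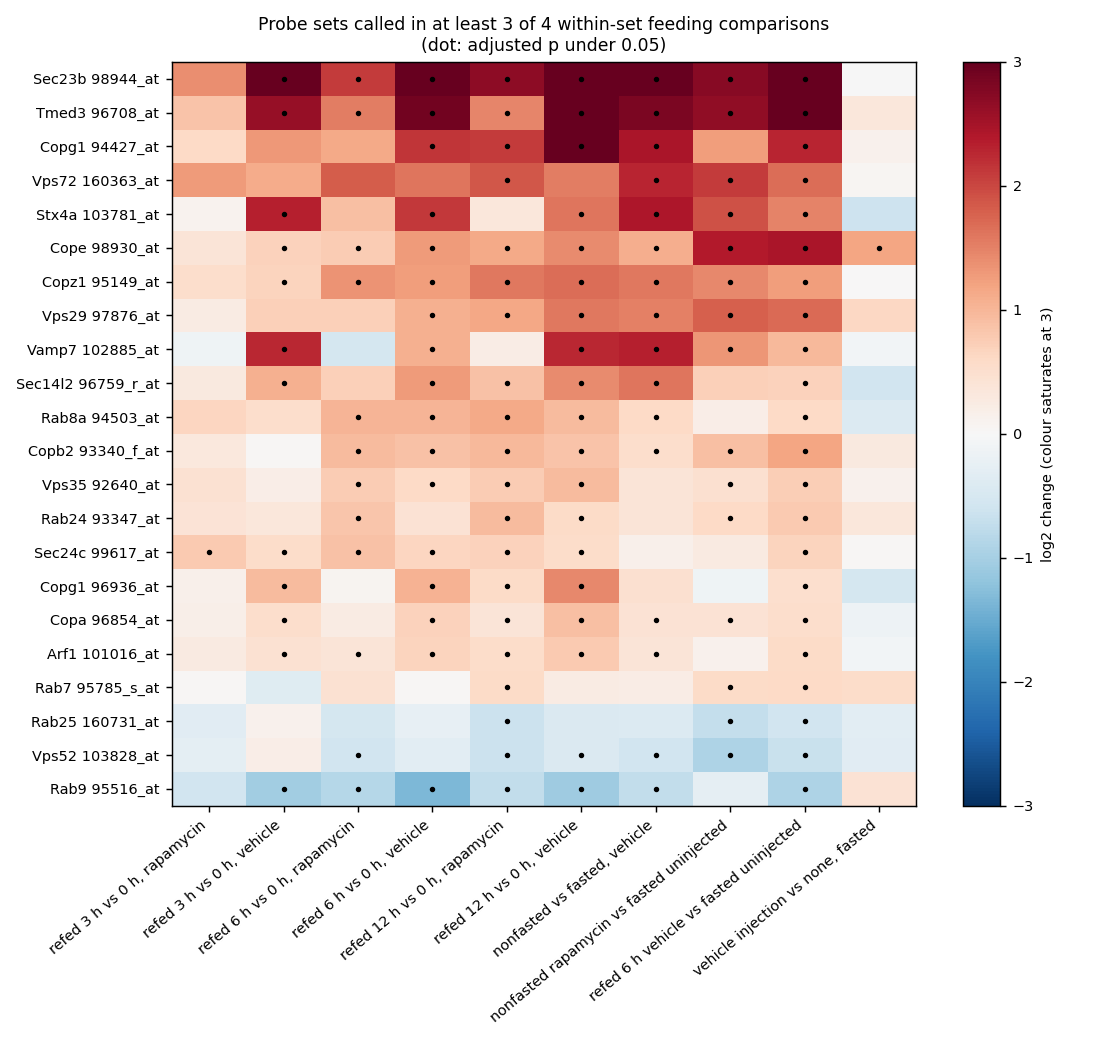
Log2 change (colour, saturating at 3) of the probe sets called in the same direction in at least 3 of the 4 feeding comparisons that lie within 1 array set, over all feeding comparisons and the injection comparison. Dots mark an adjusted p under 0.05. Of the 22 rows, 19 are higher and 3 (Rab25, Vps52 and Rab9) lower.

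Over the 4 within-set feeding comparisons, 8 probe sets were higher in all: Cope, Copz1, Copa, Copb2 93340_f_at, Sec23b, Tmed3, Vps29 and Vps35. Another 11 were higher in 3 or more of the 4 to make 19, and 3 were lower in 3 or more. These 4 comparisons are not independent, since some share groups. Those against fasted uninjected mice differ by the injection as well as by food, and that of nonfasted rapamycin mice also by the drug. Over all 9 feeding comparisons 42 of the 112 probe sets were never called, and 2 were called in both directions. These tallies were made for the members only. Whether they differ from those of the array as a whole was not tested.

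Between rapamycin and vehicle, 5 members were called at 0 h and 0 after food or without a fast, though with a floor of 30 1 was called lower at 3 h and 3 at 12 h. At 0 h, 5 were higher and 0 lower in rapamycin mice than in vehicle mice, where 4.78% of all were called higher and 0.579% lower. The 5 were Rab14 104442_at (43, 49 and 40, against 25, 24 and 13), Rab17, Rab21, Rab5b and Vamp7 (21, 27 and 26, against 1, 9 and 2). Their log2 changes ran from 0.99 to 2.02. Rapamycin 0 h lies in set 2 and vehicle 0 h in set 1. With the set as a term 0 were called, and with a floor of 30 1 was. With 1 trimmed mean 2 were higher and 3 lower, where 254 and 138 of all 6568 were. With quantile normalization 2 were higher and 2 lower, where 141 and 87 of all were. Without replicate 3 of vehicle 0 h 15 members were called in all.

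At 3 h after food, 0 members were called by limma between rapamycin and vehicle, where 0.0152% of all were called higher and 0.289% lower. At an unadjusted p under 0.05 there were 8, and the smallest adjusted p was 0.10 (Stx6). With the set as a term 1 was called higher, Stx6 (adjusted p = 0.00073), where 1 of all 6568 was. With a floor of 30 1 was called lower, Snx5 104225_at (log2 change -0.62, adjusted p = 0.0066), where 44 of all were. At 6 h 0 were called, where 0.0152% of all were called higher and 0% lower; 7 had an unadjusted p under 0.05, and the smallest adjusted p was 0.31 (Rab11b). With the set as a term 0 were called. At 12 h 0 were called, where 0.122% and 0.198% of all were called, and 10 had an unadjusted p under 0.05, of which 9 were lower. A floor of 30 called 3 lower, where 52 of all 6568 were. The 3 were Tmed3 (68, 55 and 50, against 127, 211 and 112, log2 change -1.33, adjusted p = 0.0041), Sec22b 103953_at (-0.77, adjusted p = 0.0012) and Copg1 94427_at (-0.80, adjusted p = 0.022). With the floor of 6.31 the smallest adjusted p, 0.13, was that of Sec11c: 162, 109 and 173 in rapamycin mice, against 321, 173 and 253 in vehicle mice (-0.73, 95% interval -1.14 to -0.32). Next were Sec13 (188, 194 and 174, against 311, 275 and 204, -0.49) and Sec22b 93440_at (89 ± 7.8, against 119 ± 16.5, SD, n = 3 each, -0.42), both lower on all 3 rapamycin arrays than on any vehicle array. In all, 18 of the 112 members and 11.6% of all probe sets tested were separated in this way.

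In nonfasted mice 0 were called, where 0.0761% of all were called higher and 0.929% lower, and 7 had an unadjusted p under 0.05, all lower. With the set as a term 0 were called. The smallest adjusted p was 0.067 (Vamp3, 7 and 8, against 18 and 23, all under 30). The median distance from a member's estimate to either bound of its 95% interval was 0.48 log2 units at 0 to 12 h and 0.59 in nonfasted mice. At 12 h Copz1 read 414, 419 and 359 in rapamycin mice, against 447, 471 and 493 in vehicle mice. Cope read 253, 236 and 279, against 286, 262 and 232. Sec23b, the member with the largest rise at 6 h in vehicle mice, read 116, 136 and 96, against 194, 276 and 163. Copz1 and Sec23b were lower on every rapamycin array than on any vehicle array, as were 11.6% of all probe sets tested, while Cope overlapped. Copz1, Cope and Sec23b were not called. The question whether the drug effect itself differs with refeeding was addressed by an F-test over 3, 6 and 12 h against 0 h, which called 1 of 112, where 1.31% of all were called. That was Vamp7 (adjusted p = 0.029). A term for the set took it to an adjusted p of 1, quantile normalization to 0.26, a floor of 30 to 0.79 and the replicate block to 0.066. The single call under the set term was Stx6 (adjusted p = 0.012) and under quantile normalization Vamp3 (adjusted p = 0.049), both genes under 30 on every array. Leaving out 1 array gave 0 to 3.

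**Figure D5:**
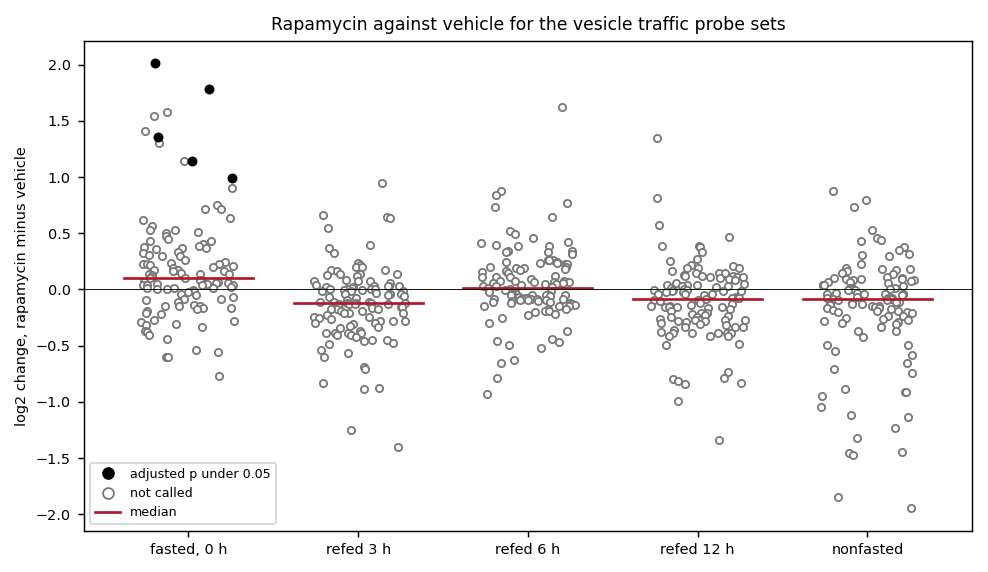
Log2 change, rapamycin minus vehicle (vertical axis), of each of the 112 probe sets at 0, 3, 6 and 12 h of refeeding and in nonfasted mice. Filled points had an adjusted p under 0.05 and red bars are medians. The 5 called points stand at 0 h, where the groups lie in different array sets.

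Genes of the same route that the symbol rule leaves out were read from a separate list, of which 50 of 70 genes (61 probe sets) were measured. At 6 h in vehicle mice 17 probe sets were higher and 4 lower (median log2 change 0.26). Of all probe sets tested 14.2% were called higher and 6.9% lower there (median 0.02). At 12 h in rapamycin mice 16 were higher and 3 lower (median 0.16), against 14.6% and 10.4% of all (median -0.00373). Arcn1, the delta subunit of COPI, rose by 0.81 and 0.92 in the 1 of its probe sets that was called in both. Sec31a, of the outer COPII layer, rose by 0.71 and 0.42. Lman1 and Mcfd2, which form a cargo receptor for clotting factors, rose by 0.69 and 0.74 at 6 h in vehicle mice and by 0.57 and 0.50 at 12 h in rapamycin mice. Cltc, the clathrin heavy chain, rose by 0.96 and 0.44. Rabac1 (-0.48 and -0.57) and Rabggtb (-0.66 and -0.50), which handle prenylated Rab proteins, fell in both.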

How the data were processed

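The members and the lists of other genes were chosen with earlier results of these data known. The authors deposited 1 intensity value per probe set and array, linear, with values below 0 kept. Per the file headers each array but the first had been multiplied by a scale factor. Detection calls stand beside them in a second deposited table and were only counted over the 33 arrays, since they were not tied to samples; 66 further columns were not used here. Raw scans were not used here.

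Before log2 was taken, intensities under 6.31 were raised to it; that is 0.1 of 63.1, the average over arrays of each array's mean after 2% was trimmed off each side. Those means ran from 53.2 to 69.9. Of 12488 probe sets, 10855 carry 1 symbol in the platform annotation, 396 several and 1237 none; those with several were not named. Left out were 66 control probe sets and any with under 3 present calls. One limma fit (3.58.1, R 4.3.3) of 11 group means on all arrays gave every comparison, with Benjamini-Hochberg adjustment over 6568 probe sets and a threshold of 0.05. Folds are on this floored scale, and those of dim probe sets depend on the floor. "At least" folds set arrays under 30 to 30. Arrays with over 31% of values at or below 0 formed set 1. Any member could be named. Values per array were given for the largest changes called and for a fixed list of genes. Alternatives were quantile normalization, 1 trimmed mean, a floor of 30, no detection filter, the set as a term, the replicate number as a block and leaving out each array. The set term and a floor of 30 together were added after seeing the data. The procedure was tested on simulated data. Nothing says that mice were housed or handled separately, so p-values measure the spread between these samples. Same-numbered arrays share only a number. Cell type lists covered hepatocytes, Kupffer, endothelial, stellate, bile duct, B and T cells, red cells, exocrine pancreas, fat and muscle.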

Additional observations from a re-analysis of the deposited data

Results flagged for a closer look

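Of 112 probe sets, 7 had an array far from the other 4 in fasted uninjected mice, the one group large enough for Dixon's test; chance gives this for about 1 group in 20. Rab9 read 198.1 on replicate 1, against 305 to 330 on the others. Arf4 160082_s_at read 368 on replicate 3, against 223 to 257. Snx9 read 492 on replicate 2, against 236 to 306. Rab12 read 76 on replicate 4, against 102 to 112, and Vps54 read 69.3 on replicate 1, against 80 to 83. The dim Vamp3 read 21 on replicate 3, against 12 to 13, and the dim Arf3 96587_at read 17 on replicate 5, against -15.1 to -10. Vamp7 passed the test of a drug effect that differs between refeeding times (limma F-test, adjusted p = 0.0288), but not with the array set as a term (adjusted p = 1), quantile normalization (0.26), a floor of 30 (0.79) or the replicate block (0.066). Relative to 0 h, the difference of rapamycin minus vehicle moved by -2.39 at 3 h, -1.59 at 6 h and -2.05 at 12 h. The value at 0 h, where array set and drug coincide, enters all 3, and no Vamp7 intensity was above 37.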

How the results depend on the processing

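Quantile normalization left 1 probe set called at 3 h in rapamycin mice and 4 for the vehicle injection. With 1 trimmed mean the injection called 6, and the median over all probe sets moved from 0.27 to 0.01 at 3 h in vehicle mice, from 0.24 to -0.00399 at 12 h, from 0.13 to -0.02 for rapamycin at 0 h and from 0.11 to -0.03 for nonfasted vehicle mice. A floor of 30 called 1 at 3 h in rapamycin mice, 1 for rapamycin against vehicle at 0 h, 1 at 3 h, 3 at 12 h (all lower) and 0 for the interaction. Without the detection filter the injection called 1. The set as a term called 2 at 3 h and 22 at 12 h in vehicle mice, 0 for rapamycin at 0 h, 1 at 3 h and 9 for nonfasted vehicle mice. With the term and a floor of 30 together these were 4, 23, 0, 1 and 10, with 3 for rapamycin at 12 h, 4 for the injection and 0 for the interaction. The replicate block called 1 at 3 h in rapamycin mice, 18 for nonfasted rapamycin mice and 0 for the interaction, and moved no other count by more than 1.5 times; deviations of same-numbered arrays correlated between -0.27 and 0.21 over 42 pairs. Sec11a at 12 h in vehicle mice reversed with the set term, with or without the floor of 30 (-0.11). With both, Arf3 96587_at reversed at 12 h in vehicle mice and in nonfasted vehicle mice (-0.17 each) and Vamp7 for rapamycin at 0 h (-0.023); the cause was not tested.

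Leaving out 1 array gave 14 to 28 calls at 3 h, 21 to 31 at 6 h and 28 to 38 at 12 h in vehicle mice, and 1 to 2, 13 to 19 and 17 to 24 in rapamycin mice, with 17 at 12 h without replicate 2 of rapamycin 12 h. Rapamycin against vehicle gave 2 to 15 at 0 h, and 0 to 1 at 3, 6 and 12 h and in nonfasted mice. At 0 h it gave 15 without replicate 3 of vehicle 0 h, 3 without its replicate 1, 2 without replicate 2 of rapamycin 0 h and 3 without its replicate 3. Nonfasted vehicle mice gave 14 to 25, nonfasted rapamycin mice 8 to 32, vehicle at 6 h against fasted uninjected mice 26 to 38, the injection 1 to 18 and the interaction 0 to 3.

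Dim probe sets limit the values: 27 of 112 averaged under 30, and their log2 changes depend on the floor.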
